A study of Mus musculus with 6 samples.

Results

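The 10 ERK feedback genes were chosen by symbol from a table of 23504 mouse genes. They were the dual-specificity phosphatase genes Dusp1, Dusp2, Dusp4, Dusp5 and Dusp6, the inhibitor genes Spry2 and Spred1, the transcription factor genes Egr1 and Egr2, and the immediate-early response gene Ier3. All 10 symbols were found in the table. With DASA-58, the mRNA of Egr2, Egr1 and Dusp5 fell to 52.3%, 49.9% and 64.6% of the DMSO mean. Dusp6 and Ier3 rose to 139.6% and 118.3%. The other 5 genes did not pass the test, so the list moved in both directions.

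The RNA came from BMMs (macrophages grown from bone marrow with the cytokine M-CSF) of young male mice of C57BL/6, a common inbred strain. The account of the sequenced cells does not say whether M-CSF stayed in the medium. The cells of 3 libraries received DASA-58, a small molecule that activates the glycolytic enzyme PKM2, and those of the other 3 libraries an equal volume of the solvent DMSO. The methods name RANKL, the cytokine that drives osteoclast formation, together with the compound only, and the results describe both groups as RANKL-induced. RNA was taken after 3 days, and the text gives no dose for the sequenced cells and writes the compound as DASA-48 in the methods but as DASA-58 in the labels. Nothing in the labels says whether the 3 libraries of a group came from separate mice or cultures, so the p-values measure the spread between these libraries, which may be technical.

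Values were FPKM, fragment counts scaled to gene length and to the depth of the library, which can be compared between genes. Between 18191555 and 18968553 fragments per library were recovered from the table. The cells were checked against their markers. Macrophage genes were abundant, with a summed level of 8 genes between 16297 and 17138 FPKM with DMSO and between 17238 and 19543 FPKM with DASA-58. Of these 8 genes, Adgre1, Cd68 and Mertk were higher and Cx3cr1 was lower. Of 10 osteoclast genes, 9 were tested and 9 were lower with DASA-58, and their summed level was between 778 and 833 FPKM with DMSO and between 449 and 467 FPKM with DASA-58. Neutrophil genes summed to between 126.0 and 132 FPKM with DMSO and between 102 and 106 FPKM with DASA-58, with 3 of 6 tested genes lower, while the defining gene Ly6g was at or near 0. The summed level of 6 stromal genes was between 34.5 and 36.7 FPKM with DMSO and between 35.0 and 36.0 FPKM with DASA-58. T and NK cell genes stayed at or below 0.428 FPKM each. The summed level of 7 heat-shock genes, which respond to handling, was between 204 and 209.6 FPKM with DMSO and between 178 and 187 FPKM with DASA-58, with 3 of 6 tested genes lower. Adgre1, Cd68, Mertk and Cx3cr1 and the osteoclast, neutrophil and heat-shock levels moved with the treatment, as did the 5 genes named above as changed. Over all genes tested, 7.28% were lower and 4.24% were higher. The part of these marker levels in the results was not tested.

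ERK is the last kinase of the cascade that runs from receptors through RAS, RAF and MEK, and in macrophages it is switched on by M-CSF and by RANKL. Active ERK enters the nucleus and turns on immediate-early genes, among them the EGR factors. It also turns on its own inhibitors, since DUSP proteins remove the activating phosphates from ERK and related kinases, and Sprouty and Spred proteins block the cascade near RAS and RAF. The mRNA of such genes is therefore often used as a readout of ERK output, although other pathways also act on most of them.

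The promoter stretches below are shown for the 4 called genes with an entry among the RefSeq promoter windows used (build GRCm38.p6). Dusp1, an abundant gene that was not called, is shown beside them. Each stretch covers the bases from 150 to 51 upstream of the RefSeq start site, 5′ to 3′ on the strand of the gene, and capitals mark motif matches. The windows of a single chromosome were left out before the search. Among the rest, entries were found for 8 of the 10 genes, and Dusp4 and Egr1 had none. A missing entry here therefore does not mean that RefSeq holds none.
Dusp5, chr19:53528995-53529094, + strand: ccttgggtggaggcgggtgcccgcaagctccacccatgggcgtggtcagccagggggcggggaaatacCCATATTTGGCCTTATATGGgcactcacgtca
Egr2, chr10:67537719-67537818, + strand: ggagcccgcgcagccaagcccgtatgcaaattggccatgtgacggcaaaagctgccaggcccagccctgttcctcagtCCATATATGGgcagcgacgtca
Dusp6, chr10:99263081-99263180, + strand: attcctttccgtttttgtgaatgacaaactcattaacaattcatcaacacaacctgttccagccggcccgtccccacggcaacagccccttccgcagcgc
Ier3, chr17:35821563-35821662, + strand: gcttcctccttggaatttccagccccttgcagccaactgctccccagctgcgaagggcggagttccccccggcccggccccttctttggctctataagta
Dusp1, chr17:26508523-26508622, - strand: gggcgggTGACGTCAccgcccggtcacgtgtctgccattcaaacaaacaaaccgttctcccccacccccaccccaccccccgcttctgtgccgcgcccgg

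In each window of 250 upstream bases, 5 motifs were searched on both strands. They were the CArG box, bound by SRF at many immediate-early genes, GCGNGGGCG, the EGR motif, TGANTCA, the AP-1 motif, TGACGTCA, the CREB and ATF motif, and CCGGAAGT, an ETS motif. No match of one motif shared a base with a match of another motif. Dusp5 held a pair of CArG boxes side by side, from 82 to 73 and from 72 to 63 bases upstream. Egr2 held CArG boxes in 4 of its 5 RefSeq windows, but 3 of these windows overlap and hold the same box, so there were 2 distinct boxes. In the window shown the match lay from 72 to 63 bases upstream. A CArG box was present in 1.62% of the 27025 genes with a window among those searched. Dusp1 held TGACGTCA, which 1.77% of the genes hold, and Dusp2 held GCGNGGGCG, which 5.33% hold. Dusp6, Ier3, Spry2 and Spred1 held none of the 5 motifs in these windows, where TGANTCA is found in 7.82% and CCGGAAGT in 3.23% of genes. These are letter matches in a short window, and nothing was measured of binding.

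The question for the 10 genes was which of them differ between DASA-58 and DMSO. The 10965 genes whose mean reached 1 FPKM, all 10 genes among them, were tested with limma on log2(FPKM + 1), and p was adjusted by Benjamini-Hochberg over all of them. A gene was called at an adjusted p under 0.05. Of the 10 genes, 3 were called lower, against 7.28% of all genes tested, and 2 were called higher, against 4.24%. The groups did not overlap for 7 of the 10 genes, against 33.4% of all genes tested. The median log2 fold change (DASA-58 minus DMSO) of the 10 genes was -0.06, beside -0.03 for all genes tested, and the median of the absolute change was 0.24 beside 0.08. The 10 genes were chosen with earlier results of these data known, so these comparisons describe the list and do not test it. Over all genes, 798 were lower and 465 higher, a split that became 504 and 597 when each library was centred on its median and 588 and 600 with quantile normalization. The calls among the 10 genes kept their directions under both scalings. In bulk RNA, fewer cells that express a gene and less mRNA in each cell cannot be told apart.

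**Figure D1:**
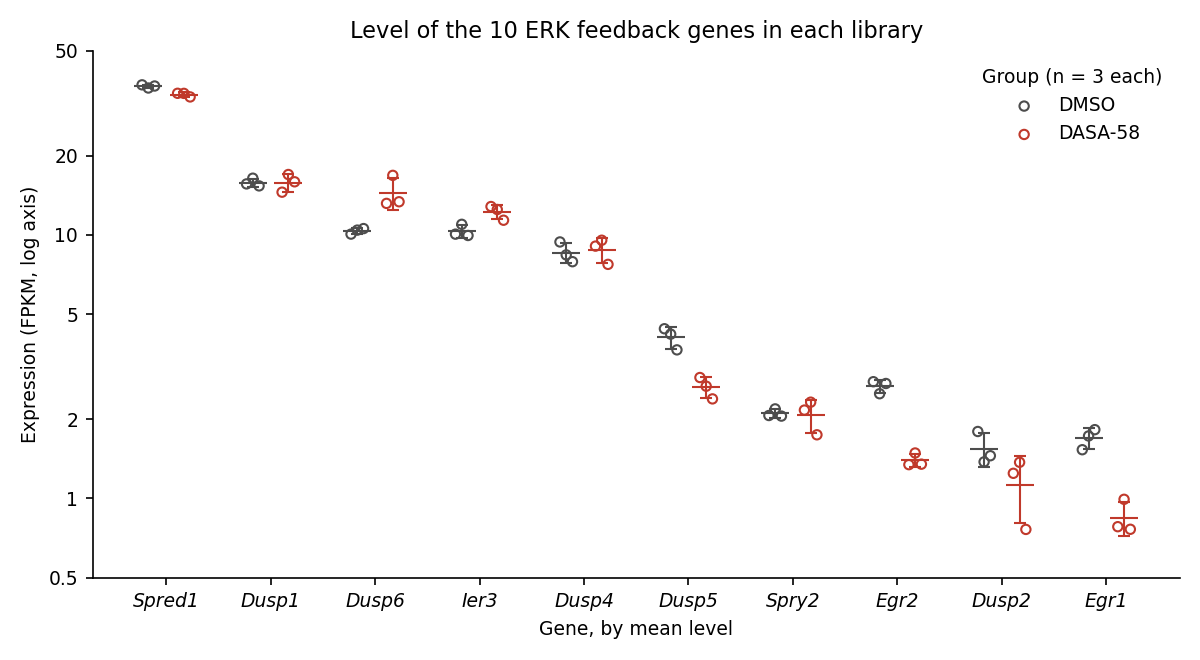
FPKM of the 10 genes in each of the 6 libraries on a log axis, with open circles for libraries and lines for the mean ± SD of each group (n = 3). The DASA-58 circles of Egr1, Egr2 and Dusp5 lie below all DMSO circles, and those of Dusp6 and Ier3 lie above them.

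Among the phosphatases, Dusp5 and Dusp6 moved in opposite directions. Dusp5 (ENSMUSG00000034765) encodes a nuclear phosphatase that acts on ERK. Its level was 4.41, 4.20 and 3.66 FPKM in the DMSO libraries and 2.88, 2.67 and 2.39 FPKM in the DASA-58 libraries. All 3 DASA-58 libraries lay below the lowest DMSO library. The log2 fold change of FPKM + 1 was -0.48 (SE 0.0776, 95% interval -0.66 to -0.30, adjusted p = 0.00808 by limma), and 165 to 200 fragments with DMSO and 112 to 134 fragments with DASA-58 stood behind it. An antisense gene overlaps the first exon of Dusp5 in the GENCODE annotation, and the use of strand in counting is not given in the sources used here, so reads of the pair cannot be told apart.

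Dusp6 (ENSMUSG00000019960) encodes a cytoplasmic phosphatase with a strong preference for ERK. Its level was 10.1, 10.4 and 10.6 FPKM with DMSO and 13.2, 16.8 and 13.4 FPKM with DASA-58. The DASA-58 libraries all lay above the DMSO libraries, and DASA-58 replicate 2 stood highest. Its log2 fold change was 0.44 (SE 0.0844, 95% interval 0.24 to 0.63, adjusted p = 0.0164 by limma) and was 0.33 without that library. The call was lost without DMSO replicate 1, at an adjusted p of 0.0603 by limma.

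The other 3 phosphatases were not called. Dusp1 (ENSMUSG00000024190), which encodes a nuclear phosphatase that acts mainly on p38 and JNK, was at 15.6, 16.4 and 15.4 FPKM with DMSO and 14.5, 16.96 and 15.9 FPKM with DASA-58. Part of its exons far upstream overlap Ergic1 in the annotation. The groups overlapped, and the 95% interval of the log2 fold change ran from -0.13 to 0.13. Dusp4 (ENSMUSG00000031530), the gene of another nuclear phosphatase, was at 9.41, 8.40 and 7.92 FPKM with DMSO and 9.07, 9.55 and 7.73 FPKM with DASA-58, with an interval from -0.16 to 0.22. Dusp2 (ENSMUSG00000027368), best known from activated immune cells, was the lowest of the phosphatases, at 1.80, 1.38 and 1.45 FPKM with DMSO and 1.25, 1.37 and 0.763 FPKM with DASA-58. Its groups did not overlap, but the nearest libraries differed by less than the spread within either group. The log2 fold change of Dusp2 was -0.27 with an interval from -0.56 to 0.03 (adjusted p = 0.22 by limma). Dusp2 rested on 52 to 66 fragments with DMSO and 29 to 50 with DASA-58, and its SE of 0.127 was the largest of the 10 genes.

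The inhibitors Spry2 and Spred1 lie higher in the cascade. Spred1 (ENSMUSG00000027351), which encodes a membrane protein that brings the RAS-GAP neurofibromin to RAS, was the most abundant of the 10 genes, at 37.1, 36.1 and 36.7 FPKM with DMSO and 34.5, 34.5 and 33.4 FPKM with DASA-58. Every DASA-58 library lay below every DMSO library, at 93.1% of the DMSO mean. A log2 fold change of -0.10 was estimated (SE 0.0295, 95% interval -0.17 to -0.03), and the adjusted p of 0.0673 by limma did not pass. With 4252 to 4621 fragments per library, Spred1 was the most precisely measured of the 10 genes, and with voom weights on the recovered fragments, an alternative added after seeing the data, its adjusted p was 0.0257. Spry2 (ENSMUSG00000022114), which encodes a Sprouty protein induced by growth factors, was at 2.06, 2.19 and 2.05 FPKM with DMSO and 2.17, 2.32 and 1.74 FPKM with DASA-58. Its groups overlapped, with an interval of the log2 fold change from -0.21 to 0.18.

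The EGR genes had the largest changes of the 10. Egr2 (ENSMUSG00000037868) encodes a zinc finger transcription factor that responds to growth factors and takes part in myeloid differentiation. Its level was 2.77, 2.50 and 2.73 FPKM with DMSO and 1.34, 1.49 and 1.35 FPKM with DASA-58, so the groups were far apart. The log2 fold change of FPKM + 1 was -0.62 (SE 0.0664, 95% interval -0.77 to -0.46, adjusted p = 0.0014 by limma), larger in size than that of 99.1% of the genes tested. Because 1 FPKM is added, the scale understates the change of genes at such low levels, and the log2 ratio of the means was -0.94.

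Egr1 (ENSMUSG00000038418), the gene of a related zinc finger factor and a classical immediate-early target of ERK, was at 1.53, 1.73 and 1.82 FPKM with DMSO and 0.782, 0.993 and 0.764 FPKM with DASA-58. All DASA-58 libraries were lower than all DMSO libraries. The log2 fold change was -0.55 (SE 0.0865, 95% interval -0.75 to -0.35, adjusted p = 0.00748 by limma) and the mean with DASA-58 was 49.9% of that with DMSO. The values rested on 126 to 149 fragments with DMSO and 65 to 81 fragments with DASA-58 for Egr1, and on 160 to 173 and 86 to 92 for Egr2.

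Ier3 (ENSMUSG00000003541) encodes a small protein that binds ERK and modulates cell survival. It was at 10.1, 11.0 and 9.95 FPKM with DMSO and 12.8, 12.5 and 11.4 FPKM with DASA-58. The lowest DASA-58 library was only slightly above the highest DMSO library. On the log2 scale the difference was 0.22 (SE 0.0559, 95% interval 0.09 to 0.35, adjusted p = 0.0413 by limma). The call of Ier3 was the least stable of the 5, since 9 of 17 alternatives gave an adjusted p at or above the limit. Among these were the fits without DMSO replicate 1 (0.121) or 3 (0.104) and without DASA-58 replicate 1 (0.125) or 2 (0.116), all by limma.

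**Figure D2:**
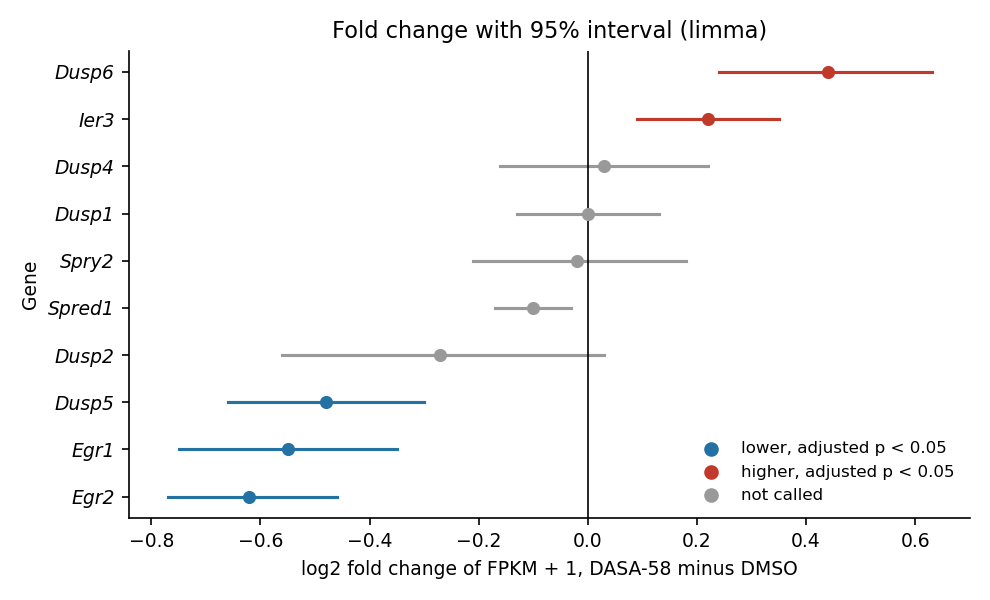
Log2 fold change of FPKM + 1 (DASA-58 minus DMSO, n = 3 each) for the 10 genes, with points for the limma estimate and lines for its 95% interval. Egr2 at -0.62, Egr1 at -0.55 and Dusp5 at -0.48 lie to the left of 0, and Dusp6 at 0.44 and Ier3 at 0.22 to the right.

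The order of levels differed between the groups in its lower part. With DMSO, Spred1 stood highest at 36.7 ± 0.513 FPKM (SD, n = 3), followed by Dusp1 at 15.8 ± 0.556, Dusp6 at 10.4 ± 0.257, Ier3 at 10.3 ± 0.558 and Dusp4 at 8.58 ± 0.761 FPKM. Dusp5 at 4.09 ± 0.384, Egr2 at 2.67 ± 0.149, Spry2 at 2.102 ± 0.0742, Egr1 at 1.69 ± 0.149 and Dusp2 at 1.54 ± 0.223 FPKM came after them. The neighbours Dusp6 and Ier3 overlapped between libraries, and so did Egr1 and Dusp2. With DASA-58, Dusp1 at 15.8 ± 1.22 and Dusp6 at 14.5 ± 2.06 FPKM overlapped, and Ier3 at 12.2 ± 0.758 FPKM came next. Egr2 at 1.39 ± 0.0817 FPKM lay below Spry2 at 2.08 ± 0.298 FPKM, the reverse of the order with DMSO, and overlapped with Dusp2 at 1.13 ± 0.321 FPKM. Egr1 was lowest at 0.846 ± 0.127 FPKM and overlapped with Dusp2. Dusp5 kept its place at 2.64 ± 0.246 FPKM, with Dusp4 above it at 8.79 ± 0.941 FPKM and Spred1 at the top at 34.1 ± 0.615 FPKM.

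The pattern of Egr2 over the 6 libraries was compared with that of every other gene tested. The most alike were Emg1, a ribosome assembly factor, with a Pearson r of 0.9978, Slc9a3r2, a scaffold protein, with 0.9975, and Nsun2, an RNA methyltransferase, with 0.9973. In all, 30 genes had an r over 0.99 and 380 an r over 0.95. The 6 libraries fall into 2 treatment groups, so any gene with a clear drop and little spread has a high r, and the values are a description.

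The rest of the pathway was described with 78 other genes in 9 lists by role. The table held 76 of them and 63 passed the filter. Of these, 10 were lower, against 7.28% of all genes tested, 6 were higher, against 4.24%, and 47 were not called. The median log2 fold change of the 63 genes was 0.01. Of the 10 lower genes, 7 were in the immediate-early list. The 9 lists were also chosen with earlier results of these data known, so their counts are a description.

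**Figure D3:**
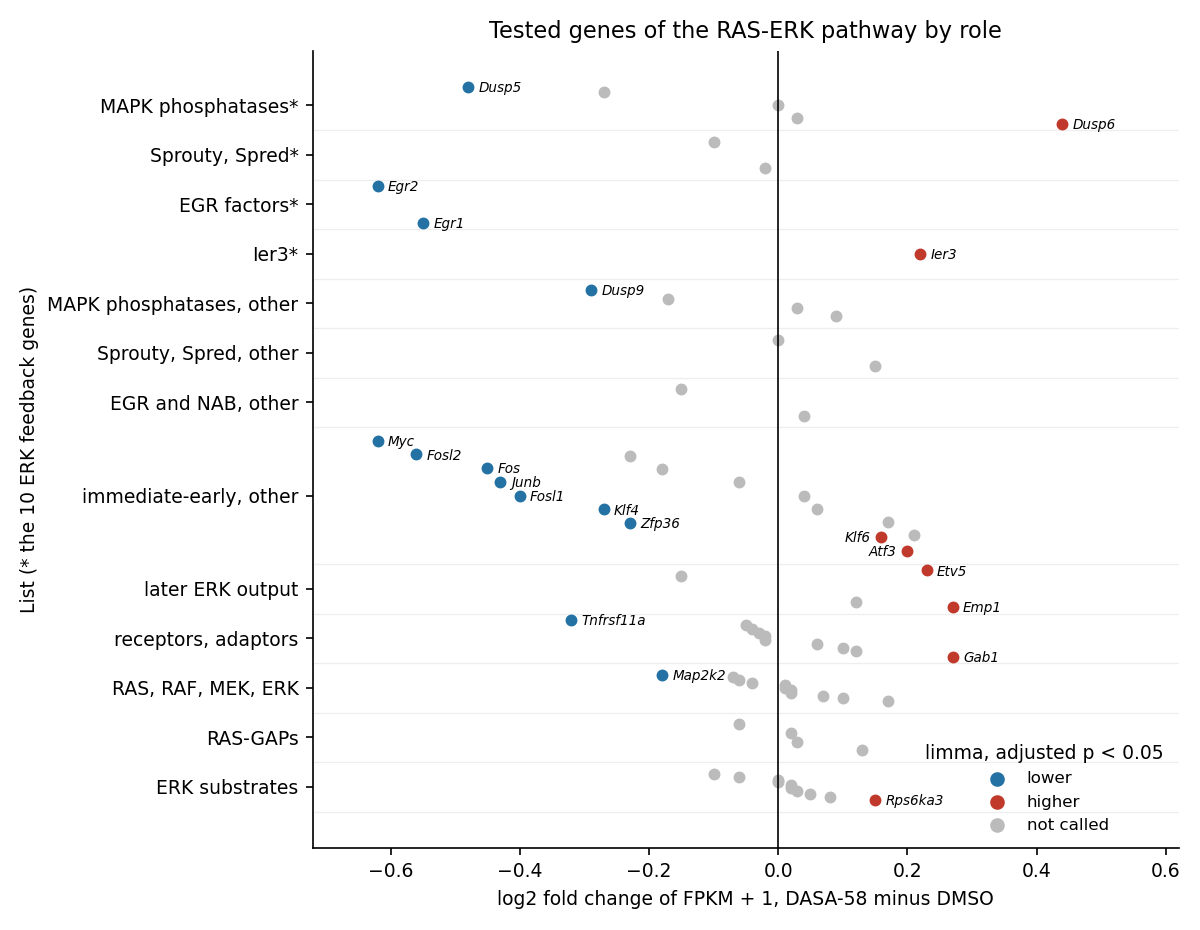
Log2 fold change of FPKM + 1 (DASA-58 minus DMSO) of each tested gene, in rows by role, with an asterisk on the 4 rows that hold the 10 ERK feedback genes. Called genes are coloured and named, and the immediate-early row runs from Myc at -0.62 to Atf3 at 0.20 among its called genes.

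Among the other phosphatase genes, 1 of 4 tested was called lower, beside 7.28% of all genes tested. Dusp9, the gene of a cytoplasmic ERK phosphatase close to Dusp6 in type, was at 1.99 ± 0.0878 FPKM in the DMSO group and 1.45 ± 0.121 FPKM in the DASA-58 group (log2 fold change -0.29, adjusted p = 0.0368 by limma). Its call was lost under 11 of 16 alternatives, among them each fit with 1 library left out. Dusp10, the gene of a phosphatase for p38 and JNK, was at 1.58 ± 0.104 and 1.30 ± 0.0588 FPKM, with -0.17 and an adjusted p of 0.176 by limma. Dusp7, a further relative of Dusp6, was at 22.8 ± 1.34 and 24.4 ± 0.687 FPKM, with 0.09 and an adjusted p of 0.239 by limma. So among the cytoplasmic ERK phosphatases Dusp6 was called higher, Dusp9 lower and Dusp7 in neither direction.

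Of the other Sprouty and Spred genes, only Spred2 and Spred3 were tested, and neither was called. Spry4 was below the filter and Spry3 was not in the table, so no other Sprouty gene was tested. Spred2 was at 5.86 ± 0.199 FPKM in the DMSO group and 6.59 ± 0.466 FPKM in the DASA-58 group, with an adjusted p of 0.138 by limma. Spry1 was also below the filter, at 0.323 ± 0.0322 and 0.135 ± 0.0264 FPKM on 16 to 19 and 6 to 9 fragments. Without the filter its adjusted p was 0.0393 by limma. Of the EGR relatives, Egr3 was also below the filter, at 0.613 ± 0.0950 FPKM in the DMSO group and 0.283 ± 0.0762 FPKM in the DASA-58 group, and the groups did not overlap. Its adjusted p without the filter was 0.0747 by limma, on 44 to 60 and 19 to 31 fragments. Nab2, which encodes a corepressor of EGR proteins and is itself a target of them, was at 5.72 ± 0.444 and 5.05 ± 0.0337 FPKM, with -0.15 and an adjusted p of 0.137 by limma.

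The other immediate-early genes held 16 tested members, of which 7 were lower and 2 higher, beside 7.28% and 4.24% of all genes tested. The lower genes were mostly subunits of AP-1, a transcription factor needed for osteoclast formation. Junb was at 172 ± 6.76 FPKM in the DMSO group and 128 ± 2.26 FPKM in the DASA-58 group (log2 fold change -0.43, adjusted p = 0.000403 by limma), and Fosl2 at 9.17 ± 0.273 and 5.89 ± 0.326 FPKM (-0.56, 0.000589). Fos, at 99.6 ± 3.23 and 72.9 ± 5.81 FPKM, and Fosl1, at 2.33 ± 0.324 and 1.52 ± 0.147 FPKM, changed by -0.45 and -0.40, with an adjusted p of 0.00262 and 0.0299 by limma. The call of Fosl1 was lost under 7 of 16 alternatives, among them the removal of any library except DMSO replicate 3. Myc, the gene of a growth-promoting transcription factor, was at 26.4 ± 1.77 and 16.9 ± 1.31 FPKM (-0.62, adjusted p = 0.00124 by limma). Its log2 ratio of the means was -0.65, nearer 0 than the -0.94 of Egr2.

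Klf4, the gene of a zinc finger factor, and Zfp36, which encodes a protein that destabilizes cytokine mRNA, changed by -0.27 and -0.23, and the call of Zfp36 was lost under 4 of 17 alternatives, among them the removal of DMSO replicate 1 or DASA-58 replicate 1. Among the windows searched for the 78 other genes, those of Zfp36, Srf and Mknk2 held a CArG box. Srf and Mknk2 were not called, with an adjusted p of 0.709 and 0.247 by limma. The windows of Fos, Junb, Fosl2 and Klf4, all lower, held no CArG box. The search covered 250 upstream bases, so a box farther upstream of these genes would have been missed. Whether a CArG box goes with the change of a gene was not tested. Atf3, a stress-induced factor, and Klf6 were higher by 0.20 and 0.16 on the log2 scale, with an adjusted p of 0.0305 and 0.0468 by limma. Both of these calls were lost under 10 of 17 alternatives, among them the removal of any library except DMSO replicate 1 for Atf3 and except DMSO replicate 3 for Klf6. Jun, at 25.6 ± 1.38 and 28.9 ± 1.27 FPKM, and Ier2, at 22.4 ± 1.41 and 19.7 ± 0.993 FPKM, did not pass, with an adjusted p of 0.0685 and 0.0768 by limma. The list therefore held genes in both directions, as did the 10 feedback genes.

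Of the later ERK output genes, 4 of 9 were tested and 2 were higher, beside 4.24% of all genes tested. Emp1, which encodes a membrane protein, was at 38.0 ± 0.423 FPKM in the DMSO group and 46.1 ± 1.77 FPKM in the DASA-58 group (log2 fold change 0.27, adjusted p = 0.00294 by limma). Etv5, the gene of an ETS factor often read together with Dusp6, was at 10.6 ± 0.477 and 12.6 ± 0.492 FPKM (0.23, 0.019). The call of Etv5 was lost under 6 of 17 alternatives, among them the removal of DMSO replicate 1 or 3 or of DASA-58 replicate 1 or 2. Plaur, the urokinase receptor gene, and Ccnd1, the cyclin D1 gene, did not pass, with an adjusted p of 0.195 and 0.275 by limma.

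Upstream, Tnfrsf11a, which encodes RANK, the receptor of RANKL, was lower at 23.5 ± 1.28 and 18.5 ± 0.355 FPKM (log2 fold change -0.32, adjusted p = 0.00392 by limma). Gab1, an adaptor downstream of receptor kinases, was higher at 3.34 ± 0.154 and 4.24 ± 0.110 FPKM (0.27, 0.0149), a call lost under 4 of 16 alternatives, among them the removal of DMSO replicate 1 or of DASA-58 replicate 1 or 3. Csf1r, the M-CSF receptor gene, was at 322 ± 2.92 and 336 ± 10.3 FPKM, with a change of 0.06 and an adjusted p of 0.202 by limma. The remaining 7 receptor and adaptor genes were not called.

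Among 11 genes for RAS, RAF, MEK and ERK, only Map2k2, the MEK2 gene, was called, at 32.3 ± 1.69 and 28.4 ± 0.299 FPKM (log2 fold change -0.18, adjusted p = 0.0326 by limma), and 10 of 17 alternatives lost that call, among them the removal of any library except DMSO replicate 3. Mapk3, the ERK1 gene, at 97.8 ± 2.84 and 104.9 ± 0.303 FPKM, missed the limit with an adjusted p of 0.0641 by limma. No RAS-GAP gene of 4 tested was called, the nearest being Rasa3 at an adjusted p of 0.0509 by limma. Of 10 ERK substrate genes, only Rps6ka3, the RSK2 gene, was called, at 14.6 ± 0.152 and 16.4 ± 0.167 FPKM (0.15, adjusted p = 0.0222 by limma), and that call was lost under 6 of 17 alternatives, 5 of which leave out a library other than DMSO replicate 3. FPKM measures mRNA, and the phosphorylation of ERK was not measured in these libraries.

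Of the 10 ERK feedback genes, Egr1 and Egr2 were called under each of their 16 alternatives, with the largest adjusted p at 0.0422 and 0.0188 by limma. Dusp5 was lost only without variance shrinkage, at 0.0671, among 16 alternatives. Dusp6 was lost under 3 of 17, namely without the filter (0.0772), without shrinkage (0.118) and without DMSO replicate 1. Spred1 was gained with voom weights only. Dusp1, Dusp2, Dusp4 and Spry2 were called under none of theirs.

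**Figure D4:**
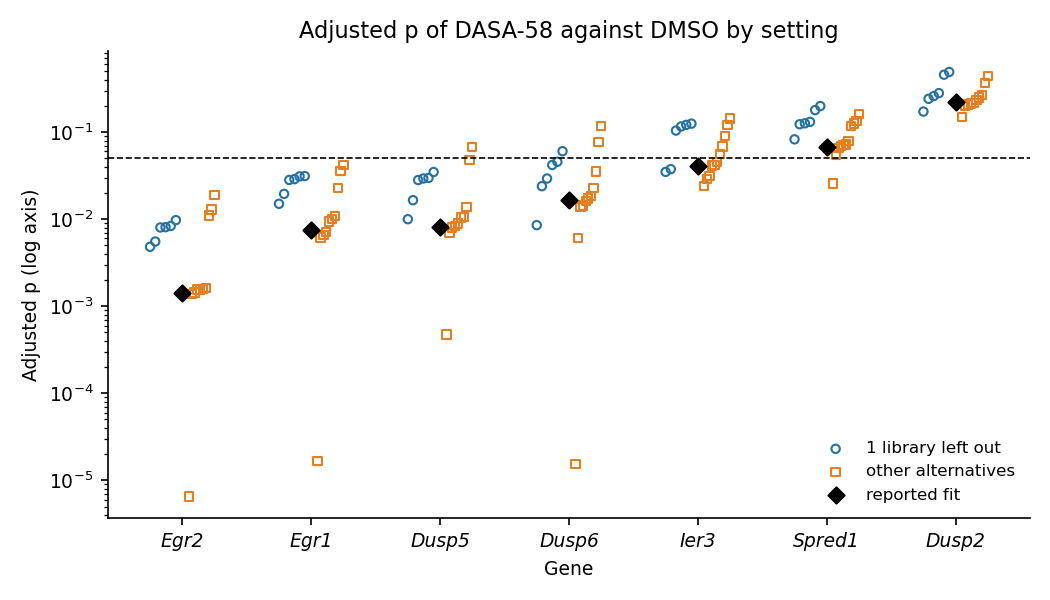
Adjusted p (log axis) of DASA-58 against DMSO for 7 of the genes, with a diamond for the reported limma fit, circles for fits with 1 library left out and squares for the other alternatives, and a dashed line at 0.05. All marks of Egr1 and Egr2 lie under the line, while those of Ier3 lie on both sides of it.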

How the data were processed

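The authors deposited 1 table of FPKM for 6 libraries, 3 per group. The submitters' processing notes name HISAT2 2.1.0, HTSeq 0.6.0 and the genome build mm8, with no settings. The gene lengths implied by the FPKM matched those of GENCODE mouse release 21, since FPKM times this length gave whole fragments (within 0.1 of a whole number in all libraries) for 91.5% of the genes. Among the listed genes, the lengths of Dusp1, Fosl1, Srf, Adgre1, Maff, Ets2, Ksr1, Nfatc1 and Sos1 were fitted. The fragments gave the depth and the voom alternative. Of the gene identifiers, 23455 had a symbol and 49 had none.

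log2(FPKM + 1) was fitted with limma 3.58.1 (lmFit, eBayes with a trend) in R 4.3.3 over all 6 libraries, with Benjamini-Hochberg adjustment, for genes whose mean reached 1 FPKM. A two-sided exact permutation test of 3 against 3 values cannot go below p = 0.1 and was not used for calls. The pseudocount was 1, and the alternatives were pseudocounts of 0.1 and 5, no filter, a filter at 5 FPKM, quantile normalization, median centring, equal library totals, no trend, no variance shrinkage, a replicate block, and each library left out. Voom was added after seeing the data. The script was tested on simulated data.

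The members and lists were chosen with earlier results of these data known. Named were all 10 members, up to 4 called genes and up to 2 uncalled genes with the smallest p in each list, and the 3 genes most like Egr2. Zfp36, Klf4, Fosl1, Atf3, Klf6, Spry1 and Egr3 were named after their values were seen. Some items are not reported here. Python 3.11.15, pandas 2.3.3 and matplotlib 3.10.9 served for the other steps.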

Additional observations from a re-analysis of the deposited data

How the results depend on the processing

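The log2 fold changes of the members kept their direction under every alternative run except those of Dusp1, Dusp4 and Spry2, which were not called. Dusp1 turned to 0.0249 with quantile normalization and with median centring and ran from -0.0511 to 0.0535 with 1 library left out. Spry2 turned to 0.0140 and 0.0103 with these scalings and ran from -0.0737 to 0.0636, and Dusp4 ran from -0.0269 to 0.1093. Of the members, 0 were lower with a mean of at least 5 FPKM, since Egr1, Egr2 and Dusp5 fall below that filter. Of the 2 members called higher, 0 were called without the filter and 0 without variance shrinkage, 1 with equal library totals, 1 without a trend and 1 with voom weights, and between 0 and 2 with 1 library left out, with 0 without DMSO replicate 1. The cause was not tested. Of the other pathway genes, 4 were lower without shrinkage, and between 6 and 9 with 1 library left out, against 10. Those called higher, 6 in the reported fit, were 2 without the filter, 10 with quantile normalization, 3 without shrinkage, 10 with voom weights and between 1 and 4 with 1 library left out (1 without DASA-58 replicate 1).

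Same-numbered libraries did not deviate together (correlations of -0.015, 0.016 and -0.016), so the replicate numbers were not taken as pairs. With the replicate block, 3 members were lower and 2 higher, and 9 pathway genes were lower and 3 higher. Over all genes, the reported 798 lower and 465 higher genes became 372 and 257 without the filter, 314 and 227 without shrinkage, 515 and 341 without a trend, and 387 to 603 and 272 to 375 with 1 library left out. Dusp2 and Spry2 rested on fewer than 100 fragments in each library.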
